A study of Mus musculus with 9 samples.

Results

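Kirrel2, Nphs1, Kirrel and Kirrel3 are the mouse genes for nephrin and the Kirrel (Neph) proteins, a small group of cell adhesion molecules of the immunoglobulin superfamily. They are 4 of the 24421 gene symbols in the count table of a study of D3 mouse embryonic stem (ES) cells, and all 4 passed the filter on low counts. They were chosen by their measured fold changes between the groups. Their levels and fold changes are therefore given as a description, without a test.

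The study holds 9 RNA sequencing libraries in 3 groups of 3. All cells were D3 ES cells on gelatin without feeder cells, in medium with serum and the LIF product ESGRO. VT cells stably carried the empty pCDH vector. LAMP2A cells overexpressed LAMP2A, the splice form of the lysosomal protein LAMP2 that acts as receptor in chaperone-mediated autophagy, and the LAMP2A+DM-αKG group was the same kind of cell given 4 mM of DM-αKG for 72 h. DM-αKG is dimethyl α-ketoglutarate, a form of the metabolite that enters cells. The labels do not say whether a group was 1 clone or a pool, or whether its libraries came from separate cultures. The p-values thus speak only of the spread among the libraries at hand, which may be technical. None of the 9 libraries was of vector cells with DM-αKG, so DM-αKG without LAMP2A overexpression was not measured. Each library held 23636074 to 32809875 counts. Lamp2, the gene of the overexpressed protein, had 56.9 to 60.03 CPM (counts scaled to library size) for VT, 403 to 407 CPM for LAMP2A and 95.4 to 99.3 CPM with DM-αKG. Counts per gene do not separate the splice forms of Lamp2 or the introduced copy. The libraries labelled LAMP2A+DM-αKG thus stood nearer to VT than to LAMP2A in Lamp2 as well, and its part in the differences with DM-αKG was not tested. The ES cell markers fixed for the analysis, 10 genes that include Pou5f1, Sox2 and Nanog, summed to 7836 to 8303 CPM for VT, 1884 to 1889 CPM for LAMP2A and 6768 to 6820 CPM with DM-αKG.

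Nephrin and the Kirrel proteins are membrane proteins with a chain of immunoglobulin domains outside the cell and a tail that takes up signalling adaptors inside it. They bind one another across the gap between cells. In the kidney, nephrin and the protein of Kirrel (NEPH1) form the slit diaphragm between the foot processes of podocytes, and loss of nephrin causes congenital nephrotic syndrome. Kirrel2 (NEPH3) is also known from the pancreas and the developing nervous system, and Kirrel3 (NEPH2) from neurons, where it takes part in the sorting of axons and the making of synapses.

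Kirrel2 and Nphs1 are direct neighbours in the mouse genome and point away from each other. In the GENCODE annotation of build mm10, Kirrel2 lies on the minus strand of chromosome 7 (30447534–30457690) and Nphs1 on the plus strand (30458315–30487223), with their outermost starts 625 bases apart and no exonic base shared. The start sites used by the RefSeq promoter table lie further apart, at 2543 bases, since Nphs1 has more than 1 annotated start. Kirrel lies on chromosome 3 (87078593–87174747, minus strand) and Kirrel3 on chromosome 9 (34485894–35036716, plus strand). The 250 bases before the RefSeq start of Kirrel2 (RefSeq, GRCm38.p6, chr7:30457516-30457765, minus strand) are shown because they lie on the side of the gene that faces Nphs1. Capitals mark matches, on either strand, to 3 of the 4 motifs that were searched: the E-box CANNTG, the RBPJ motif TGGGAA and the GC box GGGCGG.
Kirrel2 upstream: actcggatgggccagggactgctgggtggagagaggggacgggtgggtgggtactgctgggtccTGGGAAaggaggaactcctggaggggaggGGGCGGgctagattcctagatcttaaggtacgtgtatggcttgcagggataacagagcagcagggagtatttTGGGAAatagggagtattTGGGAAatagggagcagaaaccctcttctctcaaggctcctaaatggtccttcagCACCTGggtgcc
The window held 3 matches to TGGGAA, with first bases 186, 85 and 67 bases before the start, 1 match to CANNTG at 12 bases and 1 to GGGCGG at 157 bases. It held no match to the octamer ATGCAAAT, the fourth motif searched. None of the matches overlapped. Over all 32851 promoter windows of the same 250 bases, 21.6% held TGGGAA at least once and 2.77% at least 2 times, while 66.2% held CANNTG, 32.7% GGGCGG and 1.6% the octamer. In the window of the same length before the RefSeq start of Nphs1 none of the 4 motifs was found, and none was found before Kirrel. That Nphs1 window lies inside an exon of a longer Nphs1 transcript in GENCODE, and noncoding GENCODE transcripts of Kirrel2 reach into the Kirrel2 window. A match is a run of letters, not a site shown to be bound.

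Kirrel2 was well counted in VT and almost absent from LAMP2A. Its level was 38.2, 37.9 and 37.2 CPM in the 3 VT libraries. The LAMP2A libraries had 0.213, 0.280 and 0.299 CPM, and those with DM-αKG had 20.5, 20.1 and 20.9 CPM. The LAMP2A values rest on 7, 9 and 8 reads. All 3 groups were apart, with LAMP2A lowest, VT highest and the DM-αKG libraries between them. The LAMP2A mean of 0.264 ± 0.0451 CPM was 143-fold below the VT mean of 37.8 ± 0.552 CPM (SD, n = 3; log2 fold change -7.15). It was 77.8 times as high with DM-αKG as without (20.5 ± 0.394 CPM, log2 fold change 6.27). With DM-αKG it stood at 54.3% of the VT mean (log2 fold change -0.88).

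Nphs1, the nephrin gene, had the same order of groups. Its 3 libraries had 60.3, 59.9 and 62.4 CPM for VT, 0.395, 0.684 and 0.523 CPM for LAMP2A, and 35.2, 38.2 and 38.8 CPM with DM-αKG. The groups did not overlap. The mean for LAMP2A, 0.534 ± 0.144 CPM, was 114-fold below that for VT, 60.9 ± 1.37 CPM (SD, n = 3; log2 fold change -6.82). With DM-αKG it was 37.4 ± 1.92 CPM, which is 70.05 times the mean without it (log2 fold change 6.12) and 61.4% of the VT mean (log2 fold change -0.70).

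By fold change in LAMP2A against VT, Kirrel2 was the second lowest and Nphs1 the third lowest of 14513 genes tested. Fcgr2b, an Fc receptor gene named here after its values were seen, was lower, at a log2 fold change of -7.66. With DM-αKG against LAMP2A, Kirrel2 ranked highest and Nphs1 the third from the top, with Abca13 between them. In the authors' deposited table for LAMP2A against VT, Kirrel2 has a log2 fold change of -7.17 (SE 0.302) and Nphs1 of -6.83 (SE 0.214). The authors' deposited table for LAMP2A+DM-αKG against LAMP2A gives 6.3 (SE 0.305) for Kirrel2 and 6.13 (SE 0.215) for Nphs1.

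**Figure D1:**
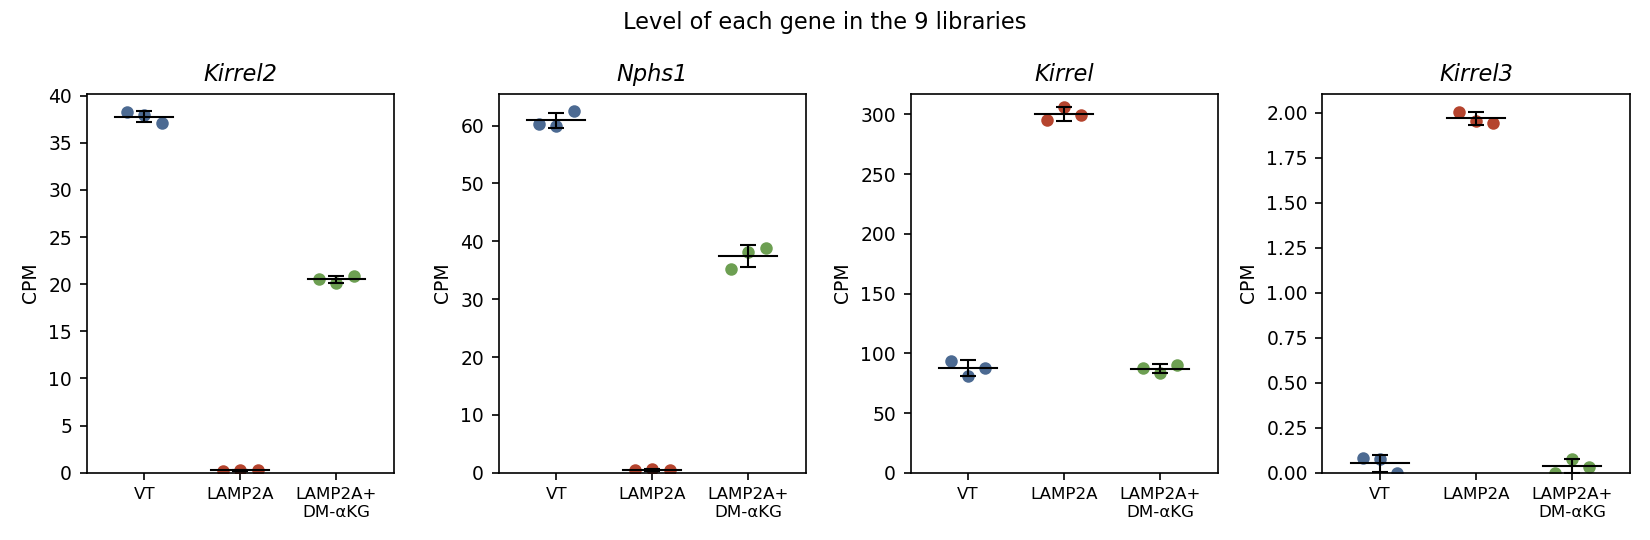
CPM of Kirrel2, Nphs1, Kirrel and Kirrel3 in each library (points), with the mean and SD of the 3 libraries of a group (lines), each panel on its own linear axis from 0. Kirrel2 and Nphs1 lie near 0 in LAMP2A, at 0.264 and 0.534 CPM, where Kirrel and Kirrel3 are at their highest, at 300.5 and 1.97 CPM.

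The proportion of Kirrel2 to Nphs1 moved far less than their levels. There were 0.634, 0.633 and 0.595 Kirrel2 reads per Nphs1 read for VT, 0.539, 0.409 and 0.571 for LAMP2A, and 0.583, 0.527 and 0.538 with DM-αKG. The mean ratio was 0.621 ± 0.0222 in VT and 0.549 ± 0.0298 with DM-αKG (SD, n = 3). These groups were apart only narrowly (0.595 against 0.583), and the difference was not tested. In LAMP2A the ratio of the summed reads was 0.490, but with 24 Kirrel2 and 49 Nphs1 reads its exact 95% interval ran from 0.287 to 0.814, which holds both other ratios. Intervals of this kind cover counting error only. Scaled to exonic length, Kirrel2 stood at 1.04 ± 0.0374 times Nphs1 in VT and at 0.923 ± 0.05 times with DM-αKG.

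**Figure D2:**
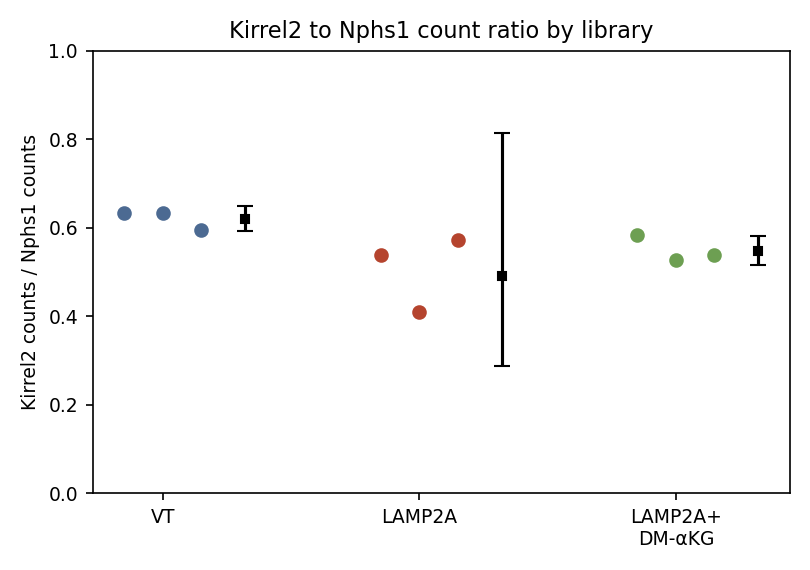
Kirrel2 reads divided by Nphs1 reads in each library (coloured points), and the ratio of the reads summed over a group with its exact 95% interval (black square and bar). The LAMP2A bar is wide, from 0.287 to 0.814, because the group holds 24 Kirrel2 and 49 Nphs1 reads.

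A transcript read from the opposite strand of Nphs1, Nphs1os, has its own row. It lies within the Nphs1 gene (chromosome 7, 30462164–30465591, minus strand), and 597 of its 1339 exonic bases are also exonic in Nphs1. The kit keeps strand, but how strand was set in the counting is not given in the sources used here. Its reads therefore cannot be kept apart from those of Nphs1 with certainty. Its level was 4.57, 3.37 and 3.87 CPM for VT, 0.0912, 0 and 0.149 CPM for LAMP2A, and 3.20, 2.77 and 3.09 CPM with DM-αKG. The LAMP2A libraries were below all the others, and VT and DM-αKG libraries did not overlap either. It fell with LAMP2A (log2 fold change -5.60, SE 0.303; edgeR quasi-likelihood adjusted p = 1.97e-18), rose with DM-αKG (5.23, SE 0.324; adjusted p = 1.21e-16) and was lower with DM-αKG than in VT (-0.37, SE 0.139; adjusted p = 0.0216). This last call was lost in 3 of 14 alternative fits, those by the DESeq2 Wald test, without VT replicate 1 and without LAMP2A+DM-αKG replicate 2 (adjusted p 0.00539 to 0.153 over the fits). Per Nphs1 read there were 0.0646 ± 0.0100 Nphs1os reads in VT and 0.0811 ± 0.00915 with DM-αKG (SD, n = 3), ranges that overlap.

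Kirrel, the gene of NEPH1, went the other way. It had 93.9, 80.9 and 87.9 CPM for VT, 295, 306 and 299.9 CPM for LAMP2A, and 87.9, 83.3 and 90.3 CPM with DM-αKG. The LAMP2A libraries were all above the rest, and the VT and DM-αKG libraries overlapped. Its mean was 87.6 ± 6.48 CPM in VT, 300.5 ± 5.54 CPM in LAMP2A and 87.2 ± 3.58 CPM with DM-αKG (SD, n = 3). It was thus 3.43-fold higher in LAMP2A than in VT (log2 fold change 1.78) and 3.45-fold lower with DM-αKG than without (log2 fold change -1.78), at 99.6% of the VT mean. While Kirrel2 and Nphs1 with DM-αKG stood below VT, the Kirrel means of the 2 groups differed by less than their spread.

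Kirrel3 was counted only in traces outside LAMP2A. Single libraries had 2, 2 and 0 reads for VT, 66, 63 and 52 reads for LAMP2A, and 0, 2 and 1 reads with DM-αKG. That is 2.01, 1.96 and 1.94 CPM in LAMP2A, against at most 0.0823 CPM in any library of the other groups. With 4 reads over VT the ratio of LAMP2A to VT was 38.5, with an exact 95% counting interval of 14.8 to 143. With 3 reads over the DM-αKG libraries the ratio of LAMP2A to them was 52.4 (17.7 to 256.5). VT and LAMP2A+DM-αKG were both at or near the level of single reads.

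In 2 of the 3 comparisons, LAMP2A against VT and DM-αKG against LAMP2A, the groups of all 4 genes were apart. The same held for 85.0% and 85.5% of all genes tested, so the separation alone does not set these genes apart. The groups of VT and LAMP2A+DM-αKG were apart for Kirrel2 and Nphs1 and overlapped for Kirrel and Kirrel3, beside 61.2% of all genes whose groups were apart. The adjusted p was under 0.05 for 85.1% of all genes in LAMP2A against VT (43.0% higher, 42.1% lower), for 83.2% in DM-αKG against LAMP2A (41.1% higher, 42.1% lower) and for 58.7% in DM-αKG against VT (29.3% each way). Every pair of these comparisons shares a group of libraries, so they are not independent of each other.

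Scaled to the exonic length of each gene, the order of the 4 genes turned between groups. In VT, Kirrel stood at 11.7 ± 0.868 CPM per kilobase, Kirrel2 at 9.59 ± 0.140 and Nphs1 at 9.20 ± 0.206 (SD, n = 3). Kirrel2 (9.43 to 9.70) and Nphs1 (9.05 to 9.43) touched in range, and Kirrel (10.9 to 12.6) lay above both. Kirrel3 was last, at 0.00807 CPM per kilobase. In LAMP2A, Kirrel reached 40.3 ± 0.742 CPM per kilobase and Kirrel3, at 0.305 ± 0.00525, stood above Nphs1 (0.0806 ± 0.0218) and Kirrel2 (0.0670 ± 0.0115), which overlapped. With DM-αKG the order was Kirrel (11.7 ± 0.480), then Nphs1 (5.65 ± 0.290) and Kirrel2 (5.21 ± 0.100), then Kirrel3 (0.00570). The ranges of Nphs1 (5.32 to 5.86) and Kirrel2 (5.10 to 5.30) were apart only narrowly. Exonic length here joins the exons of all annotated transcripts of a gene. The order of Kirrel2 and Nphs1 thus depends on which transcripts were present, which was not measured. Counted per length, Kirrel was 1.22 times Kirrel2 in VT, 613 times in LAMP2A and 2.24 times with DM-αKG. In these bulk libraries, fewer cells with a transcript and less transcript per cell cannot be told apart.

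The next question was whether the fall of Kirrel2 and Nphs1 stood alone among their nearest genes on chromosome 7. Of the 10 protein-coding genes on either side, 18 of 20 were in the table and 15 were tested. In LAMP2A against VT, 5 rose and 7 fell, and 3 did not pass (12 of 15, or 80%, beside 85.1% of all genes). Their median log2 fold change was -0.12, beside 0.01 for all genes. Aplp1, next to Kirrel2 and a relative of the amyloid precursor protein gene, had the lowest fold change. Its mean was 87.5 ± 2.28 CPM for VT, 17.6 ± 0.337 CPM for LAMP2A and 66.02 ± 1.20 CPM with DM-αKG (SD, n = 3), and the groups were apart. It fell 4.97-fold (log2 fold change -2.31, SE 0.042; edgeR adjusted p = 1.23e-32), rose 3.75-fold with DM-αKG (adjusted p = 1.28e-29) and stayed below VT (log2 fold change -0.41, SE 0.035; adjusted p = 6.32e-12). Nfkbid, of the family of NF-κB inhibitors and the gene after Aplp1, fell 2.69-fold and rose 1.71-fold, with 10.0 ± 0.828, 3.72 ± 0.237 and 6.34 ± 1.25 CPM in the 3 groups.

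Further out on the Kirrel2 side, Sdhaf1, an assembly factor of succinate dehydrogenase, fell 2.09-fold, while Clip3 and Lrfn3 rose 2.22-fold and 2.04-fold. Syne4 did not pass (log2 fold change 0.09). On the Nphs1 side, the next gene, Prodh2, had at most 12 reads over any group and was not tested. Arhgap33, which encodes a GTPase-activating protein, rose 4.43-fold with LAMP2A, from 2.06 ± 0.185 to 9.14 ± 0.305 CPM, and fell 5.77-fold with DM-αKG (edgeR adjusted p = 1.71e-19 and 8.65e-21). Beyond it Lin37 fell 1.74-fold, and Psenen and the histone methyltransferase gene Kmt2b did not pass (log2 fold changes -0.12 and -0.06). Genes that rose and genes that fell thus stood on both sides.

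With DM-αKG against LAMP2A, 8 of 15 neighbours rose and 5 fell (86.7%, beside 83.2% of all genes; median 0.13, beside 0.00 for all genes). Against VT, 5 passed, each lower with DM-αKG (33.3%, beside 58.7% of all genes). They were Clip3, Sdhaf1, Nfkbid, Aplp1 and Arhgap33. The call for Arhgap33 (adjusted p = 0.0455) was lost in 10 of 14 alternative fits, among them those without VT replicate 1 or 2, LAMP2A replicate 1 or 3, or LAMP2A+DM-αKG replicate 1 or 2 (adjusted p 0.0260 to 0.132 over the fits).

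**Figure D3:**
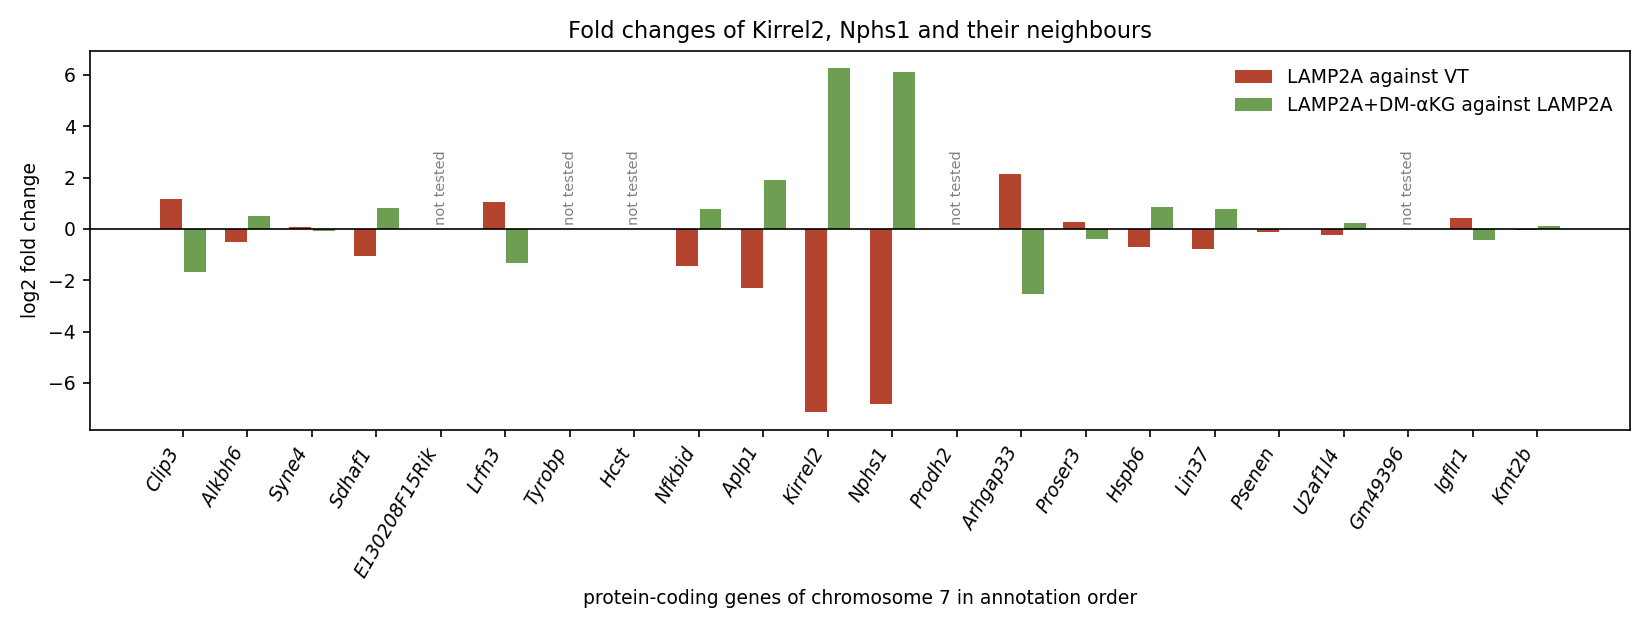
Log2 fold change of Kirrel2, Nphs1 and the 10 protein-coding genes on either side, in annotation order along chromosome 7, for LAMP2A against VT (red) and LAMP2A+DM-αKG against LAMP2A (green). Kirrel2 and Nphs1 reach -7.15 and -6.82 in red, while the flanking genes lie between -2.31 (Aplp1) and 2.15 (Arhgap33).

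Genes whose products bind nephrin or the Kirrel proteins rose slightly in LAMP2A. The list of 21 partners holds adaptors, scaffolds, kinases and a channel of the slit diaphragm, and 19 were tested. Of these, 15 rose, 3 fell and 1, Iqgap1, did not pass (94.7% called, beside 85.1% of all genes, of which 43.0% rose). The median log2 fold change was 0.46, beside 0.01 for all genes. Only 3 rose by 2-fold or more. Nck2, an adaptor that binds the phosphorylated tail of nephrin, rose 3.36-fold, from 9.32 ± 0.604 to 31.3 ± 0.0788 CPM (SD, n = 3; edgeR adjusted p = 1.79e-24). Fyn, the kinase that phosphorylates nephrin, rose 2.12-fold, from 36.8 to 77.9 CPM. Tjp1, the scaffold ZO-1 that binds NEPH1, rose 2.08-fold, from 231 ± 12.9 to 479.6 ± 4.87 CPM. Magi1 and Cask, also scaffolds, rose 1.79-fold and 1.66-fold. The members that fell were Prkci, Arrb2 and Crkl, by 1.21-fold, 1.17-fold and 1.09-fold. Cd2ap, which links nephrin to actin, was at 119 CPM in VT and 164 CPM in LAMP2A. Magi2, which rose by a log2 fold change of 0.44, lost its call in 5 of 14 alternative fits, among them those without VT replicate 2, VT replicate 3, LAMP2A replicate 1 or LAMP2A replicate 3 (adjusted p 0.0158 to 0.172 over the fits).

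With DM-αKG, 16 of the 19 partners fell and 3 rose (beside 83.2% of all genes called; median -0.43), and the 3 were again Prkci, Arrb2 and Crkl. Nck2 fell 2.25-fold and Fyn 2.07-fold. Against VT, 6 were higher and 4 lower, none by 2-fold (52.6%, beside 58.7% of all genes). Trpc6, the channel gene, had 5, 21 and 7 reads over the 3 groups and was below the filter.

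Genes reported to act on the transcription of Nphs1 or Kirrel2 moved in both directions. Of 16 on the list 15 were tested, and in LAMP2A 10 rose and 5 fell, with a median log2 fold change of 3.26. Over all genes 43.0% rose and 42.1% fell. Klf4, a pluripotency factor that also acts on Nphs1 in podocytes, was the gene of the list that fell most. Its libraries held 327.5 to 344.7 CPM for VT, 57.3 to 58.9 CPM for LAMP2A and 348.8 to 356.5 CPM with DM-αKG. Klf4 fell 5.84-fold (log2 fold change -2.54, SE 0.033; edgeR adjusted p = 3.75e-37) and rose 6.11-fold with DM-αKG (adjusted p = 1.92e-37). Klf15 fell 3.11-fold and rose 2.75-fold. Rbpj, the DNA-binding factor of the Notch pathway whose motif was searched above, fell 1.86-fold, from 365 ± 10.9 to 196 ± 3.99 CPM, rose 1.32-fold with DM-αKG and stayed below VT at 259 ± 2.16 CPM (log2 fold change -0.49, SE 0.029; adjusted p = 3.38e-16). Ptf1a, a partner of RBPJ that acts on Kirrel2 and Nphs1 in the nervous system, had no read in VT or LAMP2A and 4 reads over the DM-αKG libraries. Dnmt1 and Nr3c1 fell by 0.07 and 0.13 on the log2 scale. Dnmt1 lost its call in 7 of 14 alternative fits, among them those without VT replicate 1 and without any of the LAMP2A replicates 1, 2 or 3 (adjusted p 0.000405 to 0.201 over the fits). Nr3c1 lost it in 6, among them those without VT replicate 1 or 3 and without LAMP2A replicate 2 or 3 (adjusted p 0.0012 to 0.305 over the fits).

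The regulators that rose most in LAMP2A included transcription factors known from podocytes. Foxc2 went from 0.104 ± 0.0640 to 8.42 ± 0.477 CPM (SD, n = 3; edgeR adjusted p = 1.81e-24) and Foxc1 from 0.0919 to 5.68 CPM. Zhx2, a transcriptional repressor, rose 30.9-fold to 11.6 ± 0.621 CPM. Tcf21 had no read in VT and 50 reads over LAMP2A, at least 14.2-fold higher against a floor of 3 reads over the group. Wt1, which is known to bind the Nphs1 promoter in podocytes, rose 9.59-fold, from 0.424 ± 0.0633 to 4.09 ± 0.345 CPM. Snai1, a repressor, rose 11.1-fold to 19.0 CPM. With DM-αKG 9 of the 15 regulators fell and 4 rose (86.7%, beside 83.2% of all genes; median -1.69). Foxc2 fell 46.9-fold, Wt1 17.8-fold and Zhx2 19.1-fold. Against VT, 7 were higher and 2 lower with DM-αKG (60%, beside 58.7% of all genes). With only the 6 libraries of these groups in the fit, 5 passed in place of 9: 3 were under the filter of that fit, and Klf4 lost its call. Klf4 lost it in 12 of 14 alternative fits, among them those without VT replicate 1 or any single library of the other groups. Its adjusted p ran from 0.00515 to 0.183 over the fits. Vdr lost its call in 4, among them those without VT replicate 3 or LAMP2A+DM-αKG replicate 1 or 3 (adjusted p 0.0245 to 0.0878 over the fits).

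Other podocyte markers were at their highest where nephrin was at its lowest. Of 21 markers, of which 5 are also on the list of regulators and 2 on that of partners, 16 were tested. In LAMP2A against VT 15 rose and 1, Plce1, fell, with a median log2 fold change of 4.51 (4.14 with genes of 0 to 3 reads at their bound), and with DM-αKG all 16 tested fell (median -4.02). All 16 thus passed in both comparisons, beside 85.1% and 83.2% of all genes. Their summed level ran from 64.6 to 67.7 CPM for VT, 964 to 985 CPM for LAMP2A and 90.04 to 95.4 CPM with DM-αKG. Podxl, the sialomucin podocalyxin, was the highest of them in LAMP2A, with 30.5 ± 1.45, 731 ± 10.5 and 57.8 ± 2.696 CPM in the 3 groups. Synpo, an actin-binding protein of foot processes, rose 7.65-fold and fell 14.4-fold. Pla2r1 rose 35.8-fold to 13.9 CPM, and Thsd7a, with 1 read over VT and 364 over LAMP2A, had a ratio of 310 (exact 95% counting interval 55.3 to 12280). Plce1 fell 1.19-fold. Its further fall with DM-αKG, 1.13-fold, was lost without LAMP2A replicate 1 or LAMP2A+DM-αKG replicate 1 (adjusted p 0.00763 to 0.0566 over the fits). Tcf21, Enpep and Col4a3 had no read in VT, and Ptpro had 3, 5 and 5 reads over the 3 groups. Against VT, 6 of the 16 were higher and 2 lower with DM-αKG (50%, beside 58.7% of all genes). Most of these markers went the way of Kirrel and Kirrel3 and opposite to Kirrel2 and Nphs1. Their part in the results was not tested.

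Markers of other cell types differed between the groups too. Fibroblast markers (8 genes) summed to 8.54 to 9.63 CPM for VT, 125 to 127 CPM for LAMP2A and 6.99 to 10.1 CPM with DM-αKG. Endoderm markers (8 genes) summed to 19.0 to 21.4, 291 to 298 and 31.2 to 32.4 CPM. In LAMP2A, 6 of 7 tested fibroblast markers and 7 of 7 tested endoderm markers rose, beside 43.0% of all genes. The fibroblast marker Thy1 fell (log2 fold change -0.47). Neuron markers (8 genes) were lower in LAMP2A, at 245.7 to 249.2, 119 to 121 and 226 to 232 CPM in the 3 groups. Of 7 tested, 5 fell and 1 rose (85.7% called, near the 85.1% of all genes). Snap25 was at 0 in VT and in LAMP2A. Lum was at 0 in VT among the fibroblast markers, and Afp among the endoderm markers. The part of cell makeup in the levels of the 4 genes was not tested.

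**Figure D4:**
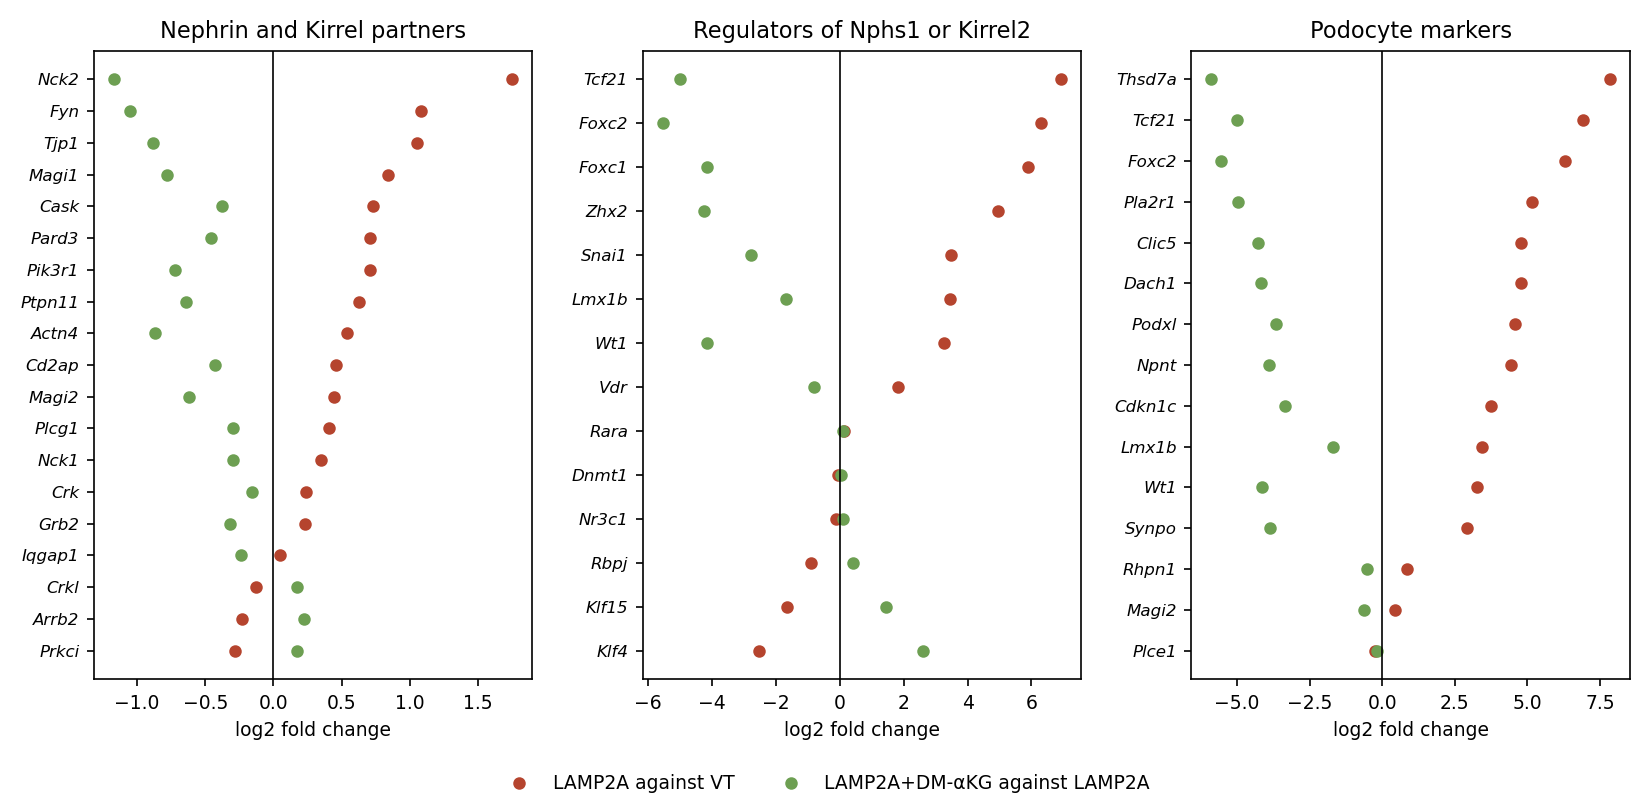
Log2 fold changes of the tested partners, regulators and podocyte markers in LAMP2A against VT (red) and LAMP2A+DM-αKG against LAMP2A (green), each list in order of the red values and on its own axis, with the genes not reported here left undrawn. Most red points lie right of 0, with medians over all tested genes of a list of 0.46, 3.26 and 4.51, while Klf4, Klf15 and Rbpj are among the few to the left.

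Set beside other adhesion genes of the immunoglobulin superfamily, Kirrel2 and Nphs1 had the lowest fold changes in LAMP2A. They were chosen by their fold changes, so this place in the order is a description only. Of 62 such genes 61 were in the table, 3 of them under an older symbol, and 48 were tested. With LAMP2A 27 rose and 15 fell (42 of 48, or 87.5%, beside 85.1% of all genes), and the median log2 fold change was 0.42. The lowest was Igsf21, a synaptic adhesion gene, which fell 17.1-fold, from 27.7 ± 2.10 to 1.61 ± 0.137 CPM (SD, n = 3; edgeR adjusted p = 5.07e-30). Mpzl2 fell 7.26-fold and Jam2, a junctional adhesion gene, 6.14-fold. Cntn2, a contactin gene of axons, fell 4.65-fold and Robo4, of the endothelium, 3.84-fold. At the other end, Robo2, a receptor for SLIT guidance cues, had 1 read over VT and 1025 over LAMP2A, a ratio of 873 (156 to 34520). Sdk2 and Sdk1, the sidekick adhesion genes of synaptic layers, rose 85.6-fold to 37.6 CPM and 44.95-fold to 7.12 CPM. Cntn1 and Vcam1, with 1 and 3 reads over VT, had 62 and 100 over LAMP2A, ratios of 52.8 (9.13 to 2119) and 28.4 (9.44 to 140). Nfasc fell by 0.31 on the log2 scale, a call that was lost without VT replicate 3 (adjusted p 0.0101 to 0.0671 over the fits).

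With DM-αKG 14 of the 48 rose and 27 fell (85.4%, beside 83.2% of all genes; median -0.41). Igsf21 rose 23.98-fold, Cntn2 7.54-fold, Jam2 6.98-fold, Mpzl2 5.97-fold and Robo4 3.65-fold. Of these 5, Igsf21, Cntn2 and Jam2 were above VT with DM-αKG (log2 fold changes 0.49, 0.70 and 0.19; edgeR adjusted p = 4.39e-10, 2.61e-14 and 2.82e-06). Mpzl2 was below VT, as Kirrel2 and Nphs1 were (-0.28; edgeR adjusted p = 1.02e-07), and Robo4 did not pass (-0.07). Over all 48, 16 were higher and 13 lower with DM-αKG than in VT (60.4%, beside 58.7% of all genes). Sdk1 was among the higher ones, at 0.828 ± 0.0502 CPM against 0.158 ± 0.114 CPM.

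**Figure D5:**
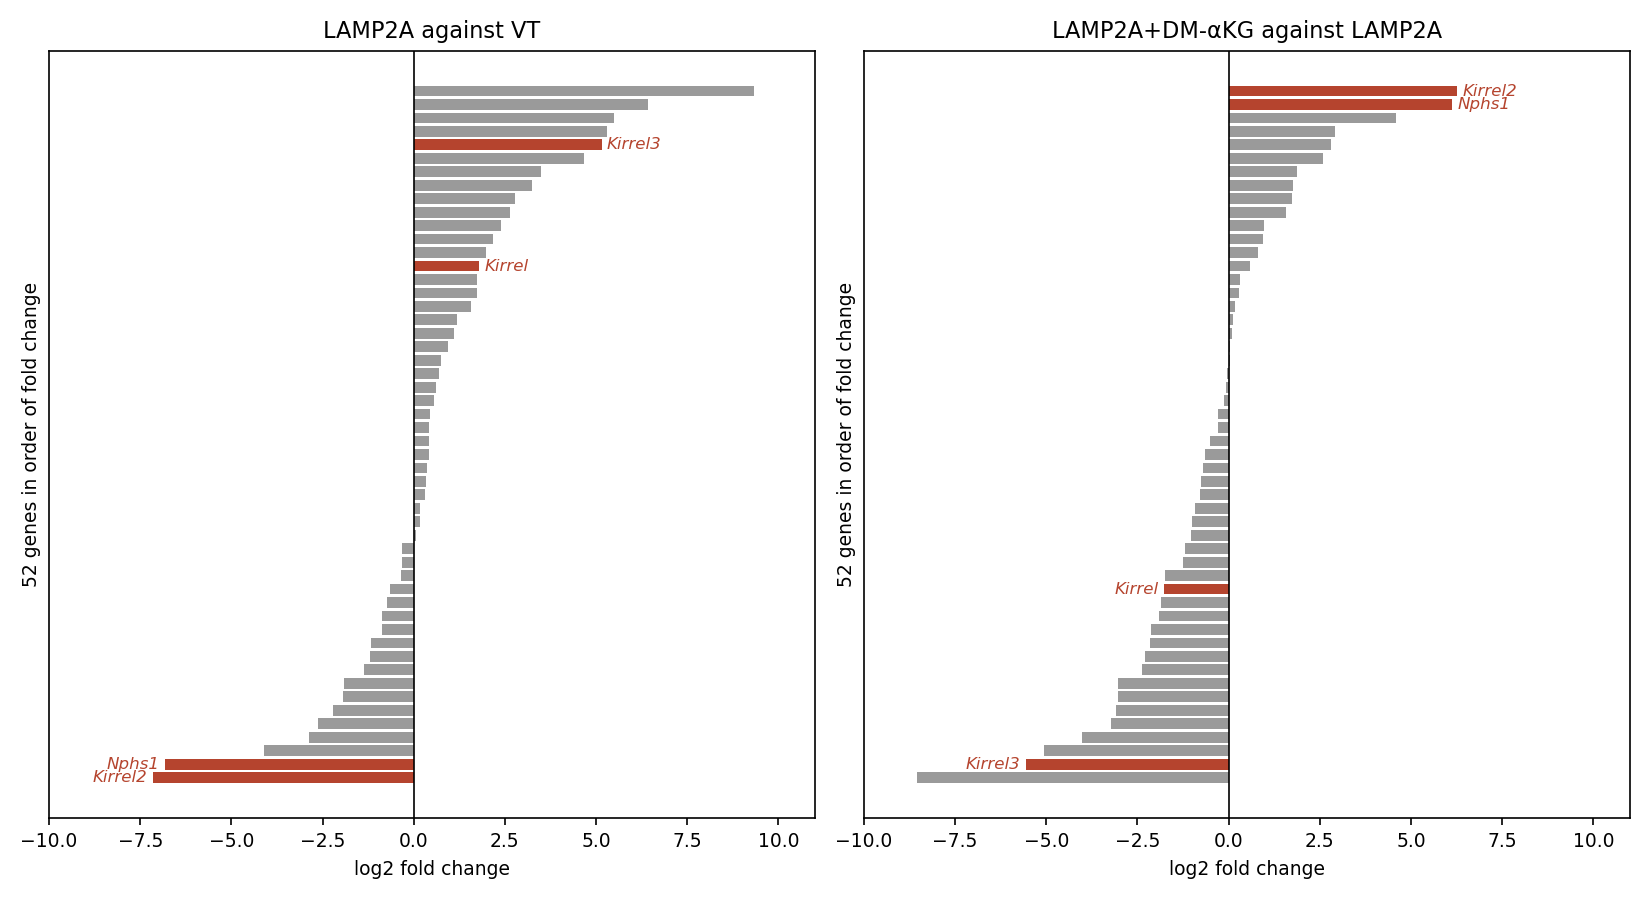
Log2 fold changes of the 48 tested adhesion genes (grey) and of Kirrel2, Nphs1, Kirrel and Kirrel3 (red), in order of size, for LAMP2A against VT (left) and LAMP2A+DM-αKG against LAMP2A (right). Kirrel2 and Nphs1 lie below all grey bars on the left, where the lowest is -4.10, and above all of them on the right, where the highest is 4.58.

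The genes most like each of the 4 in pattern were found by the root mean square difference of log2 CPM over the 9 libraries, after each gene was centred on its own mean. Of 14512 other genes tested, Nphs1 was the nearest to Kirrel2 and Kirrel2 the nearest to Nphs1, at a difference of 0.16. Both were chosen by their fold changes between these libraries, so this nearness is a description only. Leaving out the 4 genes themselves, the first for both was Inhbb, a subunit of inhibins and activins (0.56 from Kirrel2, 0.50 from Nphs1), with 159 ± 4.29, 3.08 ± 0.0656 and 118 ± 0.756 CPM in VT, LAMP2A and LAMP2A+DM-αKG. Fcgr2b followed at 0.58 and 0.60, with 9.71, 0.0433 and 2.33 CPM. Khdc3, of the maternal subcortical complex of the egg (0.95 and 0.91), and the homeobox gene Nkx6-3 (0.98 and 0.92) were among the first 5 for both, with Nphs1os (0.91) for Kirrel2 and the forkhead gene Foxn4 (0.93) for Nphs1. Kirrel, whose changes were smaller, had nearer companions: Tnrc18, Mxra8, Auts2, Arid3b and Plk2 lay within 0.05 to 0.07 of it. Tnrc18 had 71.8 ± 3.58, 242 ± 2.94 and 71.9 ± 0.948 CPM. For Kirrel3, with at most 2 reads in any library outside LAMP2A, the first 5 were Ano4 (0.38), Cdkn2b, Jph2, Pgm5 and Bmp2 (0.50). These 5 depended on the prior count of 1 in the log2 CPM. With a prior count of 5 none stayed among the first 5, and their ranks ran from 44 (Pgm5) to 1009 (Cdkn2b). Kirrel itself was far from both Kirrel2 (3.95) and Kirrel3 (1.56).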

How the data were processed

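The deposited table holds raw counts per gene, and the submitters' processing notes list STAR 2.7.1, HTSeq 0.11.2, DESeq2 and mm10. Annotation and strand use in counting: not given in the sources used here. The authors' deposited tables of 2 comparisons hold, by their file headers, a mean signal of normalized counts, log2 fold changes with errors, a test score and p-values. From these deposited tables only log2 values and errors are printed.

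edgeR 4.0.16 (R 4.3.3; TMM, filterByExpr, robust glmQLFit and glmQLFTest) was run on all 9 libraries in 1 model of 3 groups with 6 residual degrees of freedom. Of 24421 genes, 14513 were tested, with p-values adjusted over all of them (Benjamini-Hochberg) and a threshold of 0.05. The common biological coefficient of variation was 2.74%. The fit was tested on simulated data in which far fewer genes changed than the 85.1% called in LAMP2A against VT. That test therefore does not check the normalization at so large a share. Each SE was taken as the size of the log2 fold change divided by √F. CPM use the TMM-scaled library size. Exonic lengths, neighbours and coordinates came from GENCODE vM21 (mm10), promoter windows from RefSeq. Log2 CPM for the pattern search had a prior count of 1. Chi-square tests found differences beyond sampling noise within each group (1.19 to 5.93 per degree of freedom), so none were merged.

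The genes, lists and neighbour rule were chosen with earlier results of these data known. Named were the 4 genes and antisense rows, up to 5 of each list with the highest and lowest fold changes among those that passed in LAMP2A against VT, Wt1, Ptf1a and Klf4, all neighbours, and the 5 genes of most like pattern. Cd2ap, Trpc6, Snai1, Podxl, Synpo and others outside this rule were chosen after their values were seen. Some genes that the rule names are counted in their lists but not reported here. The alternatives were DESeq2 1.42.0 size factors or its Wald test, no filter, only the groups compared, a replicate block, and each library left out.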

Additional observations from a re-analysis of the deposited data

How the results depend on the processing

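Of 378 recomputed values over 28 results, 375 stayed within the spread between libraries or, for counts, within 1.5 times. Part of these could hardly move. Kirrel2 in LAMP2A against VT stayed at -7.15 without any single LAMP2A+DM-αKG library, and 12355 genes called of 14513 cannot rise 1.5 times. The 375 is therefore no measure of how firm the results are. Signs changed without single libraries only for Kirrel (-0.06 to 0.05) and Kirrel3 (-1.27 to 0.06) in LAMP2A+DM-αKG against VT, whose groups overlap. Without single libraries, the Kirrel3 log2 fold change of LAMP2A+DM-αKG against LAMP2A ran from -6.42 (without LAMP2A+DM-αKG replicate 2, which held 2 of the 3 reads) to -5.09. The regulators called in LAMP2A+DM-αKG against VT went from 9 to 5 when only these groups were fitted: 3 were under the filter of that fit, and Klf4 lost its call. Of the 20 places in the lists of like pattern, filled by 16 distinct genes, 12 (8 distinct genes) remained with a prior count of 5, and none of the 5 named for Kirrel3 did, for which the cause was not tested. Among 107 list genes, 0 to 4 calls of LAMP2A against VT, 0 to 2 of DM-αKG against LAMP2A and 1 to 5 of DM-αKG against VT were lost in an alternative fit that tested them, and none of these calls changed direction. In the fit of only VT and LAMP2A+DM-αKG, 12 of the 107 were not tested, of which 3 had been called. Deviations of same-numbered libraries from their group means correlated between -0.027 and 0.012 over all tested genes. This measure showed no pairing by replicate number, but it cannot exclude that same-numbered libraries shared a culture or day. With the replicate block, 12341, 12065 and 8462 genes passed in the 3 comparisons, in place of 12355, 12081 and 8517. Kirrel3 in DM-αKG against VT could not be fitted with only these groups, where it was under the filter. Under 10 reads of Kirrel2 a library in LAMP2A, and of Kirrel3 outside it, set the precision of their ratios.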
